A study of Caenorhabditis elegans with 10 samples.

Results

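The *nas* genes encode nematode astacins, a family of zinc metalloproteases, and their transcripts were measured here in *C. elegans* whose Met/SAM cycle is disrupted. The family was taken as every gene whose symbol is nas- followed by a number and whose mean was above 0 TPM, the number of transcripts of a gene scaled so that each library has the same total, over the libraries. It held 37 genes under 36 symbols, of 21477 genes with a mean above 0 and 46903 genes listed. TPM corrects for transcript length, so levels can be compared between genes. Of the 37 members, 24 reached a mean of 1 TPM and entered the tests beside 14418 genes in all, and 13 stayed under it.

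RNA-seq was performed on whole animals of 5 strains in biological duplicate, giving 10 libraries. The parent, written *Pacdh-1::GFP;∆nhr-10*, carries the transgene wwIs24[*Pacdh-1::GFP*;*unc-119(+)*], where the *acdh-1* promoter drives GFP, together with *nhr-10(tm4695)*, a deletion in a nuclear hormone receptor gene. The 4 mutant strains carry both of these and, in addition, 1 mutation of the Met/SAM cycle: *mthf-1(ww50)* (methylenetetrahydrofolate reductase), *sams-1(ww51)* (S-adenosylmethionine synthetase), *metr-1(ww52)* (methionine synthase) or *mtrr-1(ww56)* (methionine synthase reductase). Each mutation is a point mutation represented by 1 allele in 1 strain. Animals of all strains were arrested as L1 larvae for 18 h and then grown for 48 h with 20 nM vitamin B12 on *E. coli* OP50, after maintenance at 0.64 nM. The labels give the stage as L4, the methods give late L4 to early young adult, and at least 200 animals were pooled in a library. A pool mixes all tissues, so fewer cells that express a gene and less RNA per cell cannot be told apart.

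Astacins are secreted or membrane-bound proteases that are made as inactive proenzymes with a zinc-binding active site. In nematodes the family is much larger than in mammals, and members have roles in digestion, hatching, shaping of the pharynx and remodelling of the cuticle, the collagen coat that is replaced at each larval molt. *nas-36* and *nas-37* are needed to open and shed the old cuticle at ecdysis. *nas-38* acts in molting and in the sleep-like state that goes with it. *nas-6*, together with *nas-7*, is needed to form the grinder of the pharynx. *nas-39* has the domain layout of tolloid and BMP-1, proteases that process procollagens and growth factors in other animals. Many transcripts of the molt are made in pulses, so a level in a pool of animals also depends on where in the molting cycle those animals are.

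The libraries were alike in the number of genes detected, with 13752 to 14563 at 1 TPM or more. The 100 most abundant genes held 31.8% to 35.98% of TPM. Markers of muscle, pharynx, intestine, epidermis, neurons, germ line, sperm and oocytes were all detected, as a whole animal should give. *nhr-10* was still listed at 3.13 to 6.19 TPM in the 10 libraries, so its TPM is no check of the deletion. The 4 mutated genes were higher in every mutant library than in both parent libraries. *metr-1* was at 24.46 and 22.84 TPM in the parent against 130.62 to 242.4 TPM in the mutants. *sams-1* was at 80.15 and 33.72 TPM against 230.17 to 750.72 TPM. *mthf-1* and *mtrr-1* differed in the same direction. These levels set the parent apart from the mutants, but the label of each mutant could not be checked through them. Replicate 1 of *sams-1(ww51)* and replicate 1 of *mtrr-1(ww56)* stood apart from the other 8 libraries for many *nas* genes, and some values without them are given.

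The 24 tested members spanned a wide range. A mean of at least 10 TPM was reached by 11 of them, and 13 lay between 1 and 10 TPM. The highest means over the 10 libraries belonged to *nas-15* (43.7 TPM), *nas-37* (41.8 TPM) and *nas-11* (33.4 TPM). The 2 parent libraries held 49.25 and 16.08 TPM of *nas-15*, and the mutants 27.94 to 69.1 TPM, so the parent libraries lay on both sides of several mutant libraries. All *nas* genes together held between 0.0255% and 0.0369% of TPM, and the sum was 332.9 and 296.7 TPM in the parent against 254.99 to 369.41 TPM in the mutants. The summed level of the family in the mutants therefore spanned the parent values on both sides, while its composition differed between libraries.

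**Figure D1:**
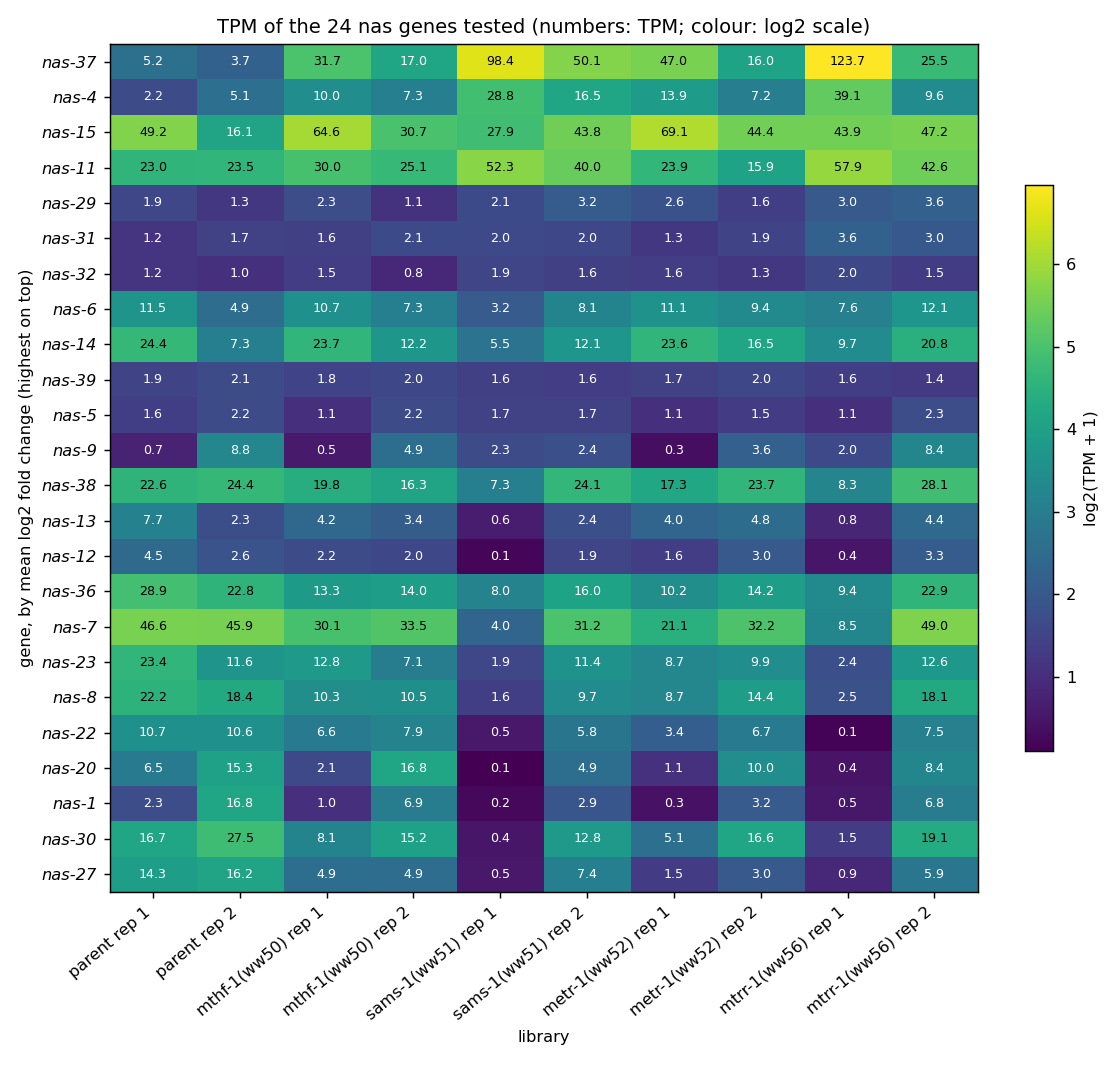
TPM of the 24 tested *nas* genes (rows, ordered by log2 fold change of the mean of the mutants against the parent) in the 10 libraries (columns). The number in each cell is TPM and the colour is log2(TPM + 1). *nas-37* goes from 5.15 and 3.7 TPM in the parent to 123.72 TPM in *mtrr-1(ww56)* replicate 1, and the lower rows are darkest in the first replicates of *mtrr-1(ww56)* and *sams-1(ww51)*.

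The 13 members under a mean of 1 TPM were not tested. Of these, 6 were at or under 0.1 TPM in every library, with 0.09 TPM as their highest value: both genes that carry the symbol *nas-2*, and *nas-16*, *nas-17*, *nas-18* and *nas-19*. The 2 *nas-2* genes, F56A4.1 and Y19D10A.6, had the same TPM in all 10 libraries, and reads from near-identical copies cannot be told apart. *nas-10* ranged from 0 to 0.21 TPM, *nas-24* from 0.07 to 0.82 TPM, *nas-25* from 0.03 to 0.94 TPM, *nas-28* from 0.35 to 1.2 TPM and *nas-33* from 0.21 to 1.05 TPM. *nas-3* was at 0.07 and 0.05 TPM in the parent, against 0.35 to 1.25 TPM in the mutants. *nas-21*, the remaining gene, ranged from 0.06 to 2.12 TPM. *nas-3* and *nas-21* fell outside the rule for named genes and were singled out after their values were seen, as were the low genes listed here.

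Members lie on all 6 chromosomes (assembly WBcel235): 3 on I, 5 on II, 3 on III, 4 on IV, 14 on V and 8 on X. On chromosome V they form 2 tight groups. *nas-16*, *nas-18*, *nas-17* and *nas-19* follow each other from position 11392320 to 11402710 and are the genes listed near 0 above. *nas-20*, *nas-21* and *nas-22* lie from position 11470925 to 11478007, with gaps of 254 bp and 799 bp between neighbours. The members of this second group were all detected, with *nas-20* at 6.50 and 15.3 TPM and *nas-22* at 10.74 and 10.64 TPM in the parent. In *sams-1(ww51)* replicate 1 the values were 0.07 TPM for *nas-20*, 0.07 TPM for *nas-21* and 0.49 TPM for *nas-22*. In *mtrr-1(ww56)* replicate 1 they were 0.37, 0.06 and 0.12 TPM in the same order. Each of these 3 neighbours had its lowest pair of values in those same libraries. Exons of 14 members, 10 of them tested, overlap those of another gene. The authors ran RSEM at default parameters, which do not use strand, so reads from stretches shared by genes on opposite strands cannot be told apart.

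Each mutant was compared with the parent by limma on log2(TPM + 1), and a gene was called at a Benjamini-Hochberg adjusted p under 0.01 with a fold change over 1.5. Fold changes on this scale understate the change of low genes. In each mutant 0 of 24 *nas* genes were called, where 0.132% (*mtrr-1(ww56)*), 0.291% (*metr-1(ww52)*), 0.0763% (*sams-1(ww51)*) and 0.187% (*mthf-1(ww50)*) of all genes tested were called. None was called in the mean of the 4 mutants either, where 0.243% of all genes were. At an unadjusted p under 0.05 in limma, 5 members were higher and 1 lower in *mtrr-1(ww56)* (26% of all genes in either direction), 1 and 1 in *metr-1(ww52)* (12.5%), 3 and 2 in *sams-1(ww51)* (18.2%), 1 and 0 in *mthf-1(ww50)* (11.9%), and 3 and 2 in the mean of the mutants (19.5%). No other test was run in place of limma. All 5 comparisons share the same 2 parent libraries, so they are not independent of one another.

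The calls differed when replicate number was added to the model as a block. Differences between replicates 1 and 2 correlated positively in all pairs of strains, so the number is treated as pairing the libraries. The correlation with the parent was low for *sams-1(ww51)* (r of 0.166) and *mtrr-1(ww56)* (r of 0.304). What an equal number shares is not stated, so the blocked calls rest on an assumed pairing. With the block, limma called *nas-37* higher in the mean of the mutants and in 2 of them, *mtrr-1(ww56)* and *sams-1(ww51)*. *nas-11* was called higher in *mtrr-1(ww56)*, and *nas-1* was called lower in the mean of the mutants. Members called higher with the block were 2 of 24 in *mtrr-1(ww56)* and 1 of 24 in *sams-1(ww51)*, against 3.11% and 2.46% of all genes tested. In the mean 1 of 24 was called higher and 1 lower, against 2.81% and 0.381% of all genes. In *metr-1(ww52)* and *mthf-1(ww50)* limma called 0 of 24 with the block, against 0.52% and 0.305% of all genes. Each count rests on 1 or 2 genes, so none of these shares sets the family apart from the background.

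*nas-37* (WBGene00003553, chromosome X, 9944844 to 9949063, minus strand, 18 exons) had the largest change among the 24 tested members on the log2(TPM + 1) scale. The parent libraries had 5.15 and 3.7 TPM of it. It was at 31.69 and 17.01 TPM in *mthf-1(ww50)* and at 98.37 and 50.11 TPM in *sams-1(ww51)*. It was at 46.98 and 15.97 TPM in *metr-1(ww52)* and at 123.72 and 25.49 TPM in *mtrr-1(ww56)*. All 8 mutant values exceeded both parent values, and replicate 1 was above replicate 2 in all 5 strains. The log2 fold change of the mean of the mutants was 2.93 ± 0.64 (SE), with a 95% interval from 1.43 to 4.44 and a limma adjusted p (Benjamini-Hochberg) of 0.074, or 0.00519 with the block. Within replicate 1 the mutants were higher than the parent by 3.43 on the log2 scale and within replicate 2 by 2.43.

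By strain, the log2 fold change of *nas-37* was 3.42 in *mtrr-1(ww56)*, 2.41 in *metr-1(ww52)*, 3.73 in *sams-1(ww51)* and 2.17 in *mthf-1(ww50)*, with an SE of 0.81 for each. The limma adjusted p (Benjamini-Hochberg) was 0.0827, 0.293, 0.0959 and 0.364 in that order, and 0.00583, 0.0323, 0.00558 and 0.0485 with the block. *sams-1(ww51)* exceeded the mean of the other 3 mutants by 1.06 on the log2 scale, with a 95% interval from -0.50 to 2.62 and a limma adjusted p (Benjamini-Hochberg) of 0.701, or 0.206 with the block. *sams-1(ww51)* was therefore not shown to differ from that mean in *nas-37*, and the other mutants were not compared with each other. Leaving out 1 library at a time with the block, the *nas-37* call in the mean of the mutants remained in 2 of 10 cases, both without a replicate of *mtrr-1(ww56)*, and the adjusted p ranged from 0.00283 to 0.069. Its call in *sams-1(ww51)* also remained in 2 of 10 cases and its call in *mtrr-1(ww56)* in 1 of 10. *sams-1(ww51)* replicate 1 and *mtrr-1(ww56)* replicate 1 held the highest *nas-37* values and were left out together only after the data were seen. Without both, the log2 fold change in the mean was 2.76 with the block. The exons of *nas-37* overlap those of C17G1.5 on the opposite strand by 32 bp, and that gene was at 3.99 to 6.95 TPM in all libraries.

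*nas-37* also took a different share of the family. It held 1.55% and 1.25% of the summed *nas* TPM in the parent libraries. It held 38.25% in *sams-1(ww51)* replicate 1 and 36.9% in *mtrr-1(ww56)* replicate 1. In the other 6 mutant libraries it held between 6.0% and 16.64%. The share of *nas-7* went the other way, from 13.99% and 15.47% in the parent to 1.56% and 2.55% in the same first replicates. No test was made on these shares, since a rise in 1 member lowers the share of all others.

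**Figure D2:**
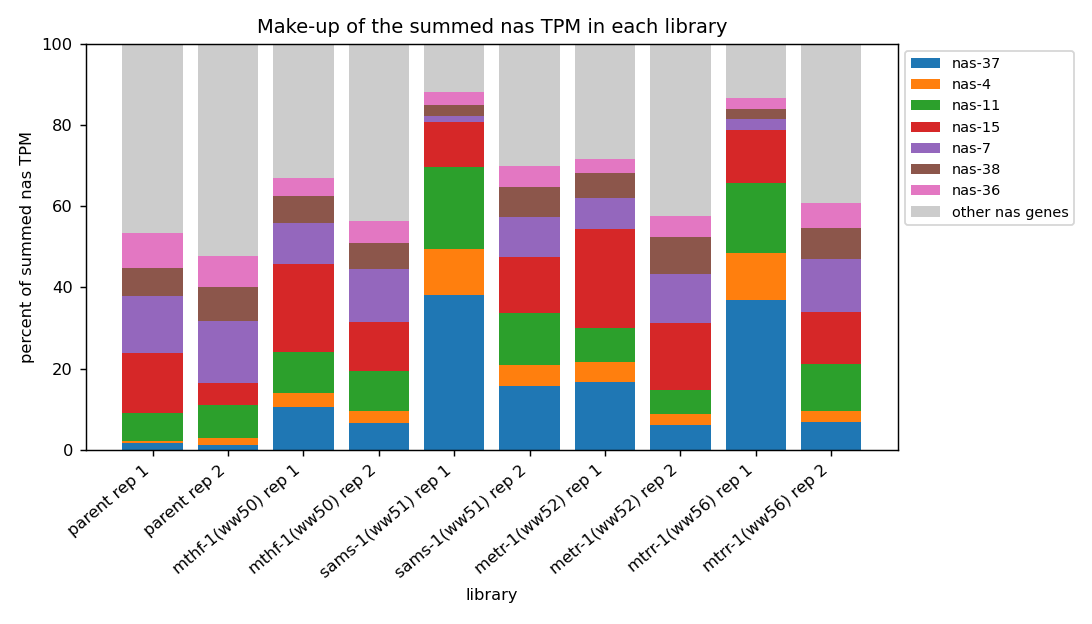
Share of the summed *nas* TPM (percent, vertical axis) held by 7 members and by all other *nas* genes together in each of the 10 libraries. *nas-37* grows from 1.55% and 1.25% in the parent to 38.25% in *sams-1(ww51)* replicate 1 and 36.9% in *mtrr-1(ww56)* replicate 1.

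*nas-4* (chromosome III, 6411578 to 6415656) was the only other tested member whose 8 mutant libraries were all above both parent libraries. That pattern was met by 2 of 24 members and by 12.9% of all genes tested. *nas-4* was at 2.19 and 5.12 TPM in the parent, and its lowest mutant value was 7.19 TPM, in *metr-1(ww52)* replicate 2. Its highest values were 28.75 TPM in *sams-1(ww51)* replicate 1 and 39.1 TPM in *mtrr-1(ww56)* replicate 1. The log2 fold change of the mean of the mutants was 1.76 ± 0.52 (SE), with a limma adjusted p (Benjamini-Hochberg) of 0.141, or 0.0609 with the block, so it was not called. Within replicate 1 the difference was 2.72 on the log2 scale and within replicate 2 it was 0.79. Exons of *nas-4* share 437 bp with C05D11.5 on the same strand, which was at 4.12 to 9.47 TPM, and reads in that stretch may be assigned to either gene.

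*nas-11* (chromosome X, 6713577 to 6716357) was at 22.99 and 23.51 TPM in the parent. It was at 52.34 and 39.97 TPM in *sams-1(ww51)* and at 57.86 and 42.64 TPM in *mtrr-1(ww56)*. It was at 29.99 and 25.12 TPM in *mthf-1(ww50)* and at 23.92 and 15.92 TPM in *metr-1(ww52)*. *nas-11* was thus above the parent in both libraries of *sams-1(ww51)*, *mtrr-1(ww56)* and *mthf-1(ww50)*, and on both sides of it in *metr-1(ww52)*. In *mtrr-1(ww56)* the log2 fold change was 1.06 ± 0.24 (SE), with a limma adjusted p (Benjamini-Hochberg) of 0.0805, or 0.00895 with the block. That call was lost in each of the 10 cases with 1 library left out, with a blocked adjusted p of 0.0186 to 0.0516. In *sams-1(ww51)* the log2 fold change was 0.95 and the limma adjusted p (Benjamini-Hochberg) was 0.121, or 0.0156 with the block. The overlapping gene on the opposite strand, *smf-2*, was at 0 to 0.09 TPM.

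**Figure D3:**
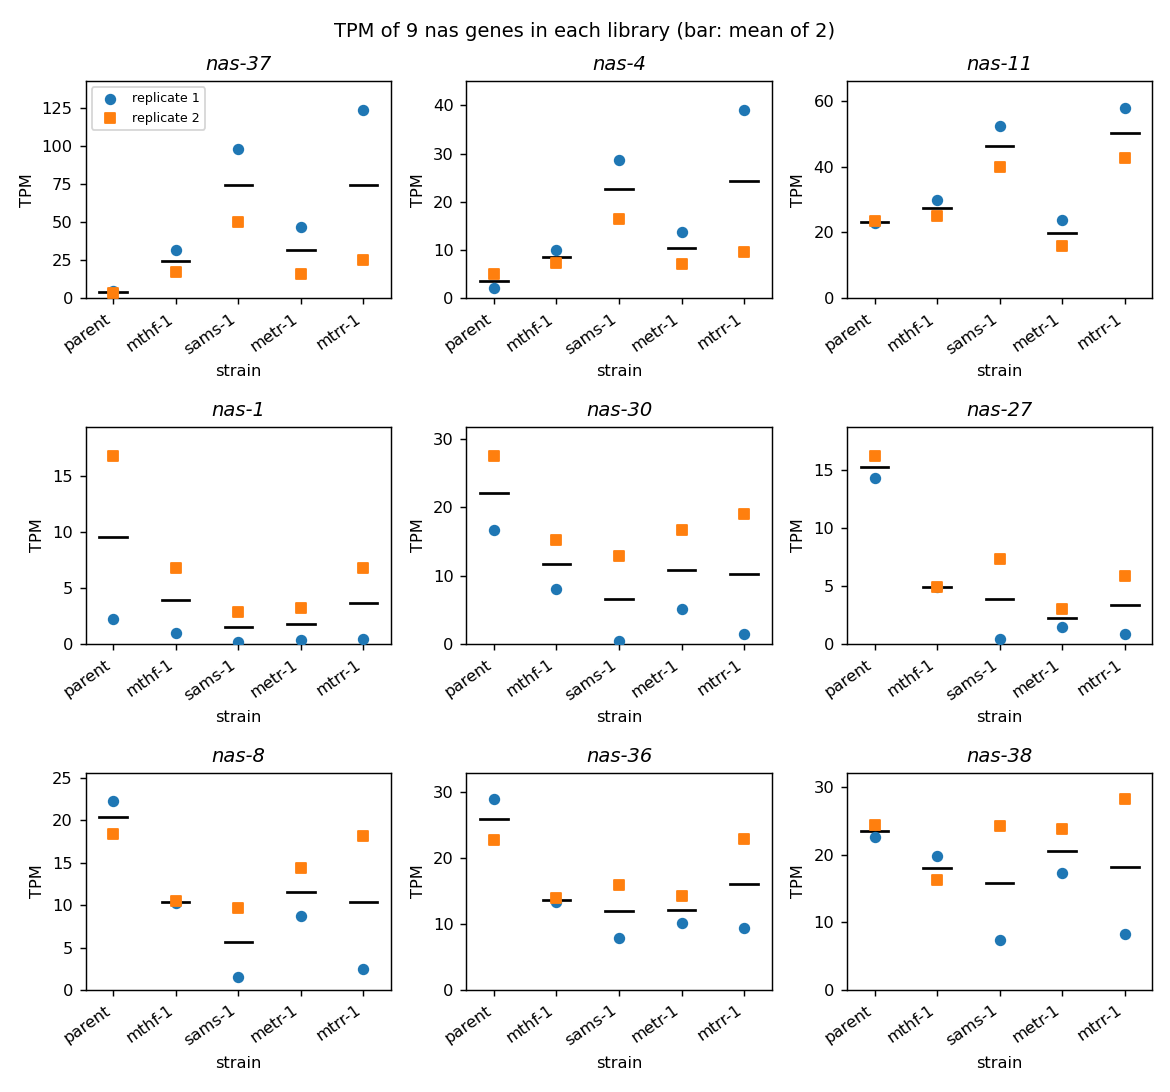
TPM (vertical axes, each from 0) of 9 *nas* genes by strain (horizontal axes), with replicate 1 as circles, replicate 2 as squares and the mean of 2 as a bar. *nas-37* and *nas-4* lie above both parent values in all 8 mutant libraries, *nas-27* and *nas-8* lie below them, and *nas-1* and *nas-30* are higher in replicate 2 than in replicate 1 in every strain.

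Most members were lower in the mutants on average. In the fits to all 10 libraries only *nas-1* was called lower, and only with the block. In the mean of the mutants 9 of 24 members had a log2 fold change above 0 and 15 below 0. Of the 14418 genes tested, 8711 were above 0 and 5707 below 0. The median was -0.38 for the members beside 0.07 for all genes tested. The median of the members was -0.42 in *mtrr-1(ww56)*, -0.29 in *metr-1(ww52)*, -0.71 in *sams-1(ww51)* and -0.27 in *mthf-1(ww50)*, beside 0.05, 0.09, 0.04 and 0.12 for all genes tested. Within both replicate numbers 13 members were lower and 6 higher in the mean of the mutants, and 5 differed in direction between the numbers. The same count over all genes tested was not made.

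The lower median rested largely on the first replicates. In the mean of the mutants it was -0.84 within replicate 1 and -0.12 within replicate 2. In replicate 2 of *mtrr-1(ww56)* the direction turned, with 16 of 24 members above parent replicate 2, 8 below it and a median difference of 0.15 on the log2 scale. Without the first replicates of *mtrr-1(ww56)* and *sams-1(ww51)*, the median of the members was 0.14 in *mtrr-1(ww56)*, -0.25 in *sams-1(ww51)* and -0.13 in the mean of the mutants. Members whose 8 mutant libraries all lay below both parent libraries were *nas-8*, *nas-22* and *nas-27*, which are 3 of 24 against 3.52% of all genes tested. None of these 3 was called in the fits to all 10 libraries.

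*nas-27* (chromosome II, 1175925 to 1179323) had the most negative value. It was at 14.29 and 16.24 TPM in the parent. It was at 0.86 and 5.87 TPM in *mtrr-1(ww56)*, at 1.49 and 3.05 TPM in *metr-1(ww52)*, at 0.47 and 7.38 TPM in *sams-1(ww51)* and at 4.93 and 4.9 TPM in *mthf-1(ww50)*. All 8 mutant values lay under the lower parent value, although the pairs within *sams-1(ww51)* and *mtrr-1(ww56)* were far apart. The log2 fold change of the mean of the mutants was -2.05 ± 0.69 (SE), with a 95% interval from -3.67 to -0.43 and a limma adjusted p (Benjamini-Hochberg) of 0.171, or 0.0488 with the block. The differences within replicate 1 and within replicate 2 were -2.60 and -1.50 on the log2 scale. In *metr-1(ww52)* the log2 fold change of *nas-27* was -2.35, with a blocked limma adjusted p (Benjamini-Hochberg) of 0.107, so it was not called. Leaving out the first replicates of *mtrr-1(ww56)* and *sams-1(ww51)* kept this fold change at -2.35. Neither is a parent or *metr-1(ww52)* library, so their removal could alter only the estimate of spread.

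*nas-8* (chromosome IV, 7114899 to 7119926) was at 22.24 and 18.43 TPM in the parent, against 1.59 to 18.13 TPM in the mutants, so its highest mutant library nearly reached the lower parent library. Its log2 fold change in the mean was -1.27 ± 0.69 (SE), with a limma adjusted p (Benjamini-Hochberg) of 0.37, or 0.188 with the block. *nas-22* was at 10.74 and 10.64 TPM in the parent, against 0.12 to 7.94 TPM in the mutants, with a log2 fold change of -1.33 ± 0.79 (SE) and a limma adjusted p (Benjamini-Hochberg) of 0.414, or 0.194 with the block. Both genes had their lowest 2 libraries in the first replicates of *mtrr-1(ww56)* and *sams-1(ww51)*.

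*nas-1* (chromosome III, 13405804 to 13409292) differed strongly between the replicate numbers. In replicate 1 it was at 2.28 TPM in the parent, against 0.46, 0.35, 0.18 and 1.02 TPM in *mtrr-1(ww56)*, *metr-1(ww52)*, *sams-1(ww51)* and *mthf-1(ww50)*. In replicate 2 it was at 16.84 TPM in the parent, against 6.85, 3.22, 2.85 and 6.86 TPM in the same order. The parent was highest within each replicate number, but parent replicate 1 was below every mutant library of replicate 2. The log2 fold change of the mean was -1.41 ± 0.98 (SE), with a limma adjusted p (Benjamini-Hochberg) of 0.478, or 0.0099 with the block. The blocked call lay just under the threshold of 0.01 and was lost in each of the 10 cases with 1 library left out, where the adjusted p ranged from 0.0128 to 0.0898.

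**Figure D4:**
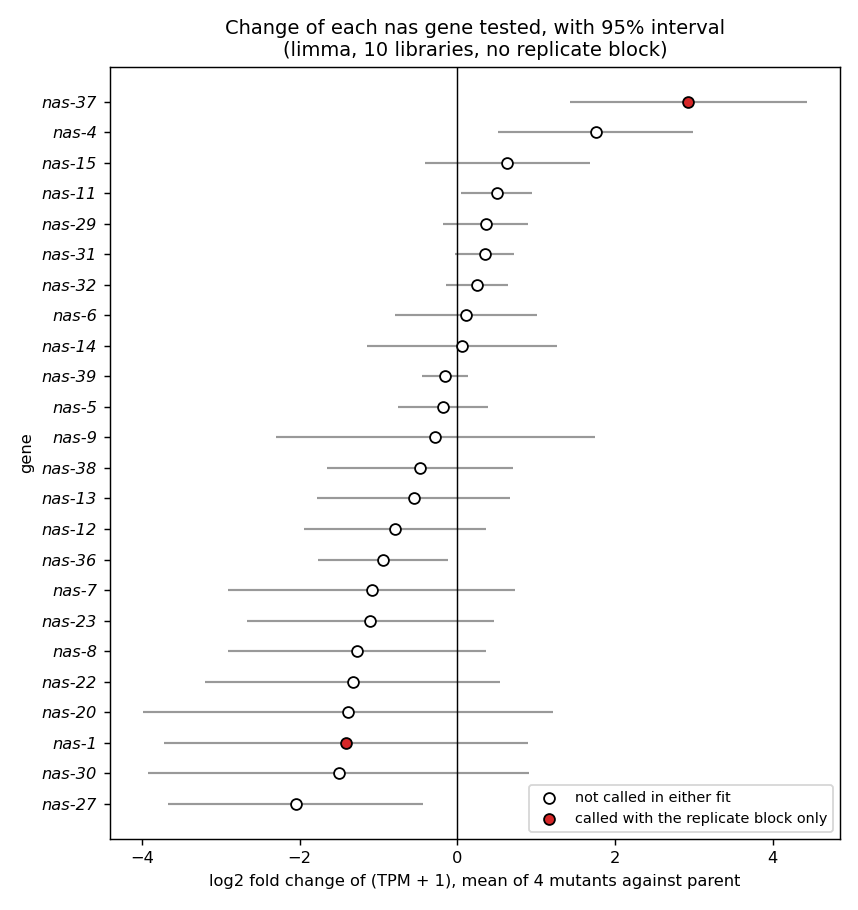
Log2 fold change of TPM + 1 for the mean of the 4 mutants against the parent (horizontal axis) of each of the 24 tested *nas* genes, with 95% intervals from limma without the replicate block. *nas-37* at 2.93 and *nas-1* at -1.41 were called only with the block, and the unadjusted intervals of *nas-37*, *nas-4*, *nas-11*, *nas-36* and *nas-27* do not include 0.

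The members with known roles in the molt did not all have estimates on the same side of the parent. They were not tested against each other. *nas-36* (chromosome I, 7527224 to 7531715), which acts with *nas-37* in ecdysis, was at 28.94 and 22.83 TPM in the parent, against 7.95 to 22.91 TPM in the mutants. Its values thus lay on the other side of the parent from those of *nas-37*, with 1 mutant library, *mtrr-1(ww56)* replicate 2, between the parent values. The log2 fold change of the mean of the mutants was -0.94 ± 0.35 (SE), with a 95% interval from -1.77 to -0.12 and a limma adjusted p (Benjamini-Hochberg) of 0.205, or 0.0858 with the block. *nas-38* (chromosome X, 558157 to 563708) was at 22.61 and 24.42 TPM in the parent. In the mutants it was at 7.35 TPM in *sams-1(ww51)* replicate 1 and 8.32 TPM in *mtrr-1(ww56)* replicate 1, and at 16.28 to 28.13 TPM in the other 6 libraries. Its log2 fold change of -0.48 had a 95% interval from -1.66 to 0.71, so neither direction was established.

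The pharyngeal members *nas-6* and *nas-7* were not called. *nas-6* was at 11.48 and 4.86 TPM in the parent, against 3.23 to 12.14 TPM in the mutants. The parent values enclosed most mutant values, and the log2 fold change of 0.11, which was -0.03 with quantile normalization, had a 95% interval from -0.79 to 1.01. *nas-7* (chromosome II, 7400545 to 7402725) was at 46.56 and 45.91 TPM in the parent, at 4.02 TPM in *sams-1(ww51)* replicate 1, at 8.54 TPM in *mtrr-1(ww56)* replicate 1 and at 21.09 to 48.95 TPM in the other 6 mutant libraries. Its log2 fold change was -1.08 ± 0.77 (SE), with a limma adjusted p (Benjamini-Hochberg) of 0.489, or 0.275 with the block. *nas-39* (chromosome X, 16456927 to 16471333) was at 1.86 and 2.15 TPM in the parent, against 1.41 to 2.01 TPM in the mutants. Its log2 fold change was -0.15, with a 95% interval from -0.44 to 0.14, the narrowest of the tested members. The log2(TPM + 1) scale understates change at such low levels. Exons of *nas-39* share 276 bp with F38E9.1 on the same strand, which was at 2.12 to 4.53 TPM. *nas-15*, the most abundant member, had a log2 fold change of 0.64 with a 95% interval from -0.41 to 1.69, and of -0.14 without parent replicate 2.

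A pair of libraries lay at the extremes for many members. *sams-1(ww51)* replicate 1 was the lowest of all libraries for 13 of 24 members. How often it was lowest over all genes tested was not counted, so this number has no background. *sams-1(ww51)* replicate 1 and *mtrr-1(ww56)* replicate 1 were together below the other 8 libraries for 11 members, against 14.5% of all genes tested: *nas-7*, *nas-8*, *nas-12*, *nas-13*, *nas-20*, *nas-22*, *nas-23*, *nas-27*, *nas-30*, *nas-36* and *nas-38*. They were together above the other 8 for 4 members, *nas-4*, *nas-11*, *nas-32* and *nas-37*, against 15.8% of all genes tested. Members detected at 1 TPM or more numbered 17 in the first of these libraries and 19 in the second, and 22 to 27 in the others. *nas-30*, for example, was at 16.67 and 27.48 TPM in the parent, at 0.43 TPM in *sams-1(ww51)* replicate 1 and 12.83 TPM in replicate 2, and at 1.46 TPM in *mtrr-1(ww56)* replicate 1 and 19.05 TPM in replicate 2. For *nas-30* the first replicates of these strains were thus far below their second replicates. Of the genes in this paragraph, *nas-12*, *nas-13*, *nas-20*, *nas-23*, *nas-30* and *nas-32* were named after their values were seen.

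Some of the 24 tested members differed between replicate numbers in the same direction in every strain, about as often as all genes tested. Replicate 2 was above replicate 1 in every strain for 5 members, *nas-1*, *nas-5*, *nas-9*, *nas-20* and *nas-30*, against 18.6% of all genes tested. *nas-9*, also named after its values were seen, was at 0.71 and 8.77 TPM in the parent, against 0.27 and 3.58 TPM in *metr-1(ww52)*. Replicate 1 was above replicate 2 in every strain for *nas-32* and *nas-37*, against 11.4% of all genes tested. Within each replicate number the parent was above all 4 mutants for 6 members, *nas-1*, *nas-8*, *nas-22*, *nas-27*, *nas-30* and *nas-39*, against 7.71% of all genes tested. It was below all 4 for *nas-4*, *nas-31* and *nas-37*, against 19.3%.

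Levels of molting, adult-onset and sperm genes also differed between the libraries. For 40 genes of molting and the cuticle, none of them a *nas* gene, the summed level was 13158.89 and 6838.03 TPM in the parent and 10097.6 to 22285.39 TPM in the mutants, and the first replicate had the higher sum in all 5 strains. Of the 39 tested, 34 had a log2 fold change above 0 in the mean of the mutants and 5 below 0, with a median of 1.91. With the block, 2.81% of all genes tested were called higher in this comparison. Of the 39 molting and cuticle genes limma called 0 without the block and 22, all higher, with it. The largest of those were *lpr-3* at 5.01, *dpy-3* at 4.83, *dpy-8* at 4.69 and *noah-2* at 4.49 on the log2 scale. *dpy-3* and *dpy-8* encode cuticle collagens, *noah-2* a zona pellucida domain protein and *lpr-3* a lipocalin of the apical matrix.

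For 21 adult-onset and oocyte genes the summed level was 2228.15 and 6752.43 TPM in the parent and 271.4 to 6250.03 TPM in the mutants. All 21 had a log2 fold change below 0 in the mean of the mutants, with a median of -0.83, and in that comparison limma called 0 of them with or without the block. In *mtrr-1(ww56)* their median was -2.08, and limma called 0 without the block and 8 with it, all lower, against 1.06% of all genes called lower with the block. The lowest sum, 271.4 TPM, was in *mtrr-1(ww56)* replicate 1, the library with the highest *nas-37*. For 20 sperm genes the sum was 6988.14 and 8062.08 TPM in the parent and 2784.97 to 7711.58 TPM in the mutants, with a median log2 fold change of -0.35, and the lowest sum was again in *mtrr-1(ww56)* replicate 1. No gene of these 3 lists was listed at 0 in any library. *sams-1(ww51)* replicate 1, the other library that stood apart, had the second-lowest sperm sum, 4570.75 TPM. Its adult-onset sum of 1346.37 TPM was above those of *mthf-1(ww50)* replicate 1 (958.62 TPM) and *metr-1(ww52)* replicate 1 (869.53 TPM), and its molting sum of 19186.77 TPM was below that of *metr-1(ww52)* replicate 1 (20066.99 TPM). The part of these stage-linked levels in the values of the *nas* genes was not tested.

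**Figure D5:**
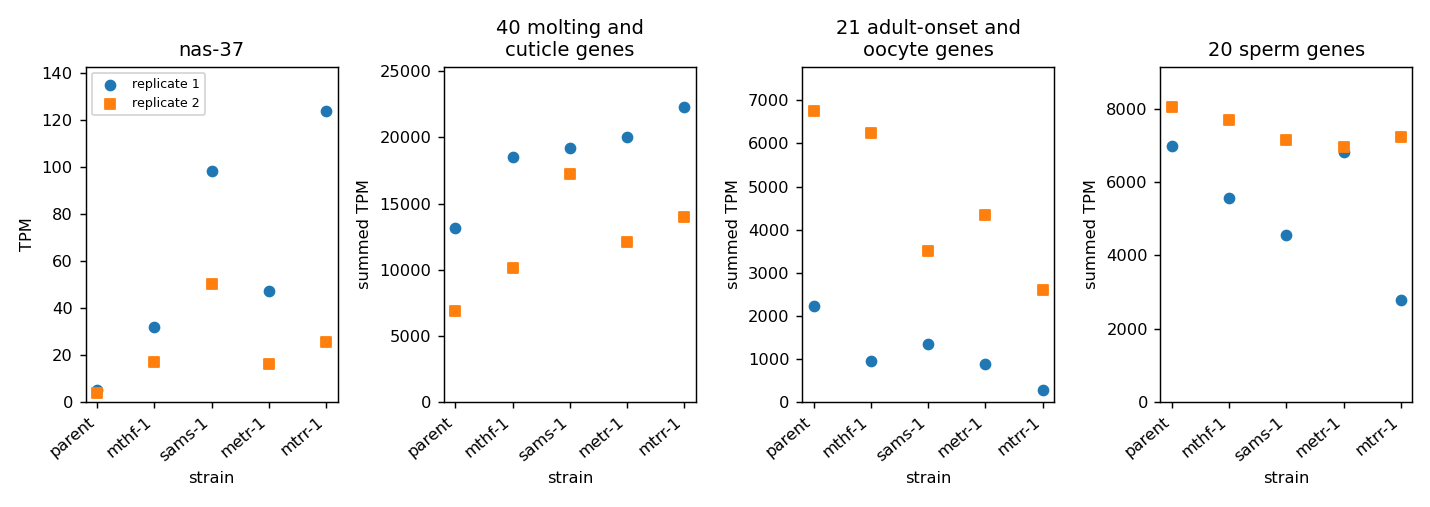
*nas-37* (TPM) and the summed TPM of 40 molting and cuticle genes, 21 adult-onset and oocyte genes and 20 sperm genes in each library, by strain (horizontal axes), with replicate 1 as circles and replicate 2 as squares. In all 5 strains replicate 1 is higher for *nas-37* and the molting genes and lower for the adult-onset and sperm genes, and *mtrr-1(ww56)* replicate 1 has the highest *nas-37* (123.72 TPM) and the lowest adult-onset sum (271.4 TPM).

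Astacins with other names were not called either. *dpy-31*, which processes the collagen SQT-3, was at 9.85 and 17.54 TPM in the parent, against 12.62 to 49.84 TPM in the mutants, with a log2 fold change of 0.87 and a limma adjusted p (Benjamini-Hochberg) of 0.205, or 0.121 with the block. *toh-1*, a tolloid-like gene, was at 31.47 and 71.27 TPM in the parent, against 2.08 to 46.08 TPM in the mutants, with a log2 fold change of -1.65 and a limma adjusted p (Benjamini-Hochberg) of 0.474, or 0.0883 with the block. *hch-1*, the hatching enzyme, was at 0 to 0.02 TPM. The lowest *toh-1* values were again those of the first replicates of *mtrr-1(ww56)* and *sams-1(ww51)*, and the highest *dpy-31* values were in the same libraries. These 3 genes were named outside the rule, after their values were seen.

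Among other metalloproteases 17 were tested in the mean of the mutants, with 13 above 0, 4 below 0 and a median of 0.28. Without the block limma called 0 of them, and with it 1, against 2.81% of all genes called higher with the block. The gene called was *zmp-2*, a matrix metalloprotease. It was at 0.61 and 0.34 TPM in the parent, against 2.16 to 57.98 TPM in the mutants, with a log2 fold change of 2.96 and a limma adjusted p (Benjamini-Hochberg) of 0.0929, or 0.0096 with the block. Of 6 protease inhibitors tested, 5 were above 0 and 1 below 0. limma called 0 without the block. With it, against the same 2.81% of all genes, it called 1 inhibitor. This was *mlt-11*, a Kunitz-type inhibitor needed for molting that is also among the 40 molting genes. It was at 1.88 and 1.77 TPM in the parent, against 11.43 to 259.29 TPM in the mutants, with a log2 fold change of 4.02 and a limma adjusted p (Benjamini-Hochberg) of 0.0639, or 0.00639 with the block. *mlt-11* and *zmp-2*, like *nas-37*, were above both parent values in all 8 mutant libraries, a pattern met by 12.9% of all genes tested.

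The last comparison asked whether *sams-1(ww51)*, the mutant of the enzyme that makes SAM itself, differed from the mean of the other 3 mutants. No *nas* gene was called with or without the block, and 0% of all genes tested were. At an unadjusted p under 0.05 in limma 1 member was higher and 0 were lower, against 7.94% of all genes in either direction. Of 24 members 6 were above 0 and 18 below 0, with a median of -0.41 beside -0.03 for all genes tested, and the values ranged from -1.11 to 1.06, the latter being *nas-37*. *sams-1(ww51)* replicate 1, which stood apart for many members, enters this comparison as 1 of its 2 libraries.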

How the data were processed

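Whole-animal RNA of 10 samples was sequenced, and the authors aligned paired-end reads with Bowtie2 and estimated TPM per gene with RSEM at default parameters. The deposited TPM table has 2 decimals, each library sums to about 1000000, and TPM keeps no sequencing depth, so no counting error can be given. The submitters' processing notes also list DESeq2 and R 3.6.3. The columns of the table name strain and replicate, and 44018 gene IDs received a symbol. Coordinates are from the WBcel235 annotation, which was not compared with the authors' release.

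limma 3.58.1 (R 4.3.3) was fitted to log2(TPM + 1) of 14418 genes, those whose mean reached 1 TPM, with one mean per strain over all 10 libraries, empirical Bayes moderation with a trend, two-sided tests and p-values adjusted by Benjamini-Hochberg across the 14418 genes. Genes were called at an adjusted p under 0.01 with a fold change over 1.5. Same-numbered replicates were paired in the alternative fit, since the replicate 1 minus replicate 2 differences over all genes tested correlated above 0.1 in 10 of 10 pairs of strains (r from 0.166 to 0.736). The labels and methods do not say what an equal number shares. The fit without the block was tested on simulated data, for the mean of the mutants only, with independent noise in each library. The blocked fit was not tested in this way. Python 3.11.15, pandas 2.3.3, numpy 2.4.6 and matplotlib 3.10.9 were used for tables and figures.

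The members, gene lists and tests were chosen with earlier results of these data known. Named members are those called in any comparison with or without the block, those with 8 mutant libraries on one side of both parent libraries, the 3 with the highest mean TPM, and *nas-6*, *nas-7*, *nas-36*, *nas-37*, *nas-38* and *nas-39*. Of the other lists, up to 4 genes called in the mean comparison are named, largest first. The fits were repeated with a pseudocount of 0.1, without a filter, with a mean of at least 5 TPM, median-ratio scaling, quantile normalization, no trend, an adjusted p under 0.05, each mutant fitted with the parent alone, the replicate block, and each library left out in turn. Leaving out *sams-1(ww51)* replicate 1 and *mtrr-1(ww56)* replicate 1 together, and leaving out libraries with the block, were added after seeing the data. Promoter sequences were not analysed here.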

Additional observations from a re-analysis of the deposited data

How the results depend on the processing

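Without the replicate block 0 *nas* genes were called in every comparison under every alternative run, including each library left out in turn and an adjusted p under 0.05. With the block, limma called 1 in *sams-1(ww51)*, 2 in *mtrr-1(ww56)* and 2 in the mean of the mutants, and it changed no other call. The block raised the calls over all genes tested in the mean of the mutants from 35 to 460. With the block and each library left out, the counts were 0 to 1 in *sams-1(ww51)*, 0 to 1 in *mtrr-1(ww56)* and 0 to 1 in the mean. The member that kept a call was *nas-37*, with a log2 fold change in the mean of 2.77 without *mtrr-1(ww56)* replicate 1 and 3.10 without replicate 2. Leaving out the first replicates of *mtrr-1(ww56)* and *sams-1(ww51)* left 1 library in each of these strains. With the block, the log2 fold change was then 2.76 for *nas-37* in the mean and -2.35 for *nas-27* in *metr-1(ww52)*. Among the 13 members of the naming rule *nas-6* and *nas-15* changed sign. The other members were not refitted one by one, but the mutants were above the parent in one replicate number and below it in the other for 5 of 24 members, among them *nas-9* (0.29 and -0.85) and *nas-13* (-1.57 and 0.47). *nas-6* was at -0.03 with quantile normalization. Across libraries left out it ranged from -0.43 (without parent replicate 2) to 0.66 (without parent replicate 1), with -0.03 without *sams-1(ww51)* replicate 2, and with the block from -0.56 to 0.78, with -0.06 for the same library. *nas-15* ranged from -0.14 (without parent replicate 2) to 1.42 (without parent replicate 1), and with the block from -0.02 to 1.30. The cause was not tested. Median-ratio scaling moved the median of all genes tested in the mean comparison from 0.068 to -0.027. A strain left with 1 library was assumed to vary like the others. Each strain had 2 replicates, and TPM gives no depth, so values near 0 carry no known counting error.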
